A study of Caenorhabditis elegans with 33 samples.

Results

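The genes *pud-1.1*, *pud-1.2*, *pud-2.1*, *pud-2.2*, *dod-3*, *dod-17*, *dod-19*, *dod-24* and *sod-3* are known as transcriptional outputs of the insulin pathway of *Caenorhabditis elegans*. They were found by their WormBase symbols, and each of the 9 symbols matched 1 of the 46778 gene identifiers in the deposited counts. All 9 were among the 17627 genes with enough counts to be tested. They were chosen by symbol with earlier results of these data known, exposed against control changes among them, and the rule does not record which values entered the choice. The values below therefore describe where and by how much each gene differed, and they are no independent support of a direction.

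Whole animals of the wild-type strain N2, labelled as L4 larvae and young adults, were compared over 4 generations by RNA-seq. In the exposed groups F0, F1, F2 and F3 every generation developed under chronic gamma radiation, at a dose rate of 50 mGy per h over 65 h starting with synchronised embryos. The recovery groups F1, F2 and F3 had ancestors irradiated in F0 and grew without irradiation themselves, and control animals were never irradiated. All groups were grown at 19 °C on plates seeded with *E. coli* OP50, and each of the 11 groups had 3 libraries. Total counts were 27.7 to 60.8 M per library (median 37.3 M), of which ribosomal RNA genes took 3.19% to 24.3%. F3 recovery replicate 3 and F3 control replicate 3 stood apart with 18240 and 19610 genes detected, against at least 20503 in the other 31 libraries. Every marker in the lists of 10 intestine, 14 germline, 7 muscle and 8 neuron genes had counts in all 11 groups. In RNA of whole animals, fewer cells of a type and less RNA per cell cannot be told apart.

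Insulin-like peptides act through the receptor DAF-2 and the kinases AGE-1, PDK-1 and AKT to hold the FOXO transcription factor DAF-16 in the cytoplasm. In *daf-2* mutants DAF-16 enters the nucleus, and the animals are long-lived and resistant to stress. The *pud* genes were named for proteins more abundant in such mutants, and the *dod* genes for lying downstream of DAF-16. Transcripts of *sod-3*, which encodes a mitochondrial manganese superoxide dismutase, and of *dod-3* are known as higher in *daf-2* mutants. Those of *dod-17*, *dod-19* and *dod-24* are known as lower, and *dod-17* and *dod-24* encode proteins with a CUB-like domain that also feature in the intestinal response to pathogens.

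The 9 genes did not move as 1 group. The 4 *pud* genes had higher mean levels in exposed than in control animals in F0 and F1, and 2 of them were called in F0 and 3 in F1. Averaged over the 4 generations, the exposed against control log2 fold change was 0.38 for *sod-3* and 0.25 for *dod-24*, of the class lowered in *daf-2* mutants. For *dod-24* the average was uneven, with means of 128 CPM in both exposed and control animals in F1. The level of *dod-3* was lower in exposed than in control animals in F2 and F3, where the control means stood above those of every other group. In recovery against control animals *dod-3* was the 1 gene called within a generation, in F3. That comparison uses the same F3 control libraries as the exposed animals, so it is no second observation of them. Levels are given as CPM, counts per M counts of a library after TMM scaling, and genes were called at an adjusted p under 0.05 over all 17627 genes in edgeR's quasi-likelihood test. Per kb of exon, *dod-19* and *dod-24* had the highest median levels over the 33 libraries, at 135 and 90.6 CPM per kb, and *pud-1.1* the lowest at 1.76 CPM per kb.

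**Figure D1:**
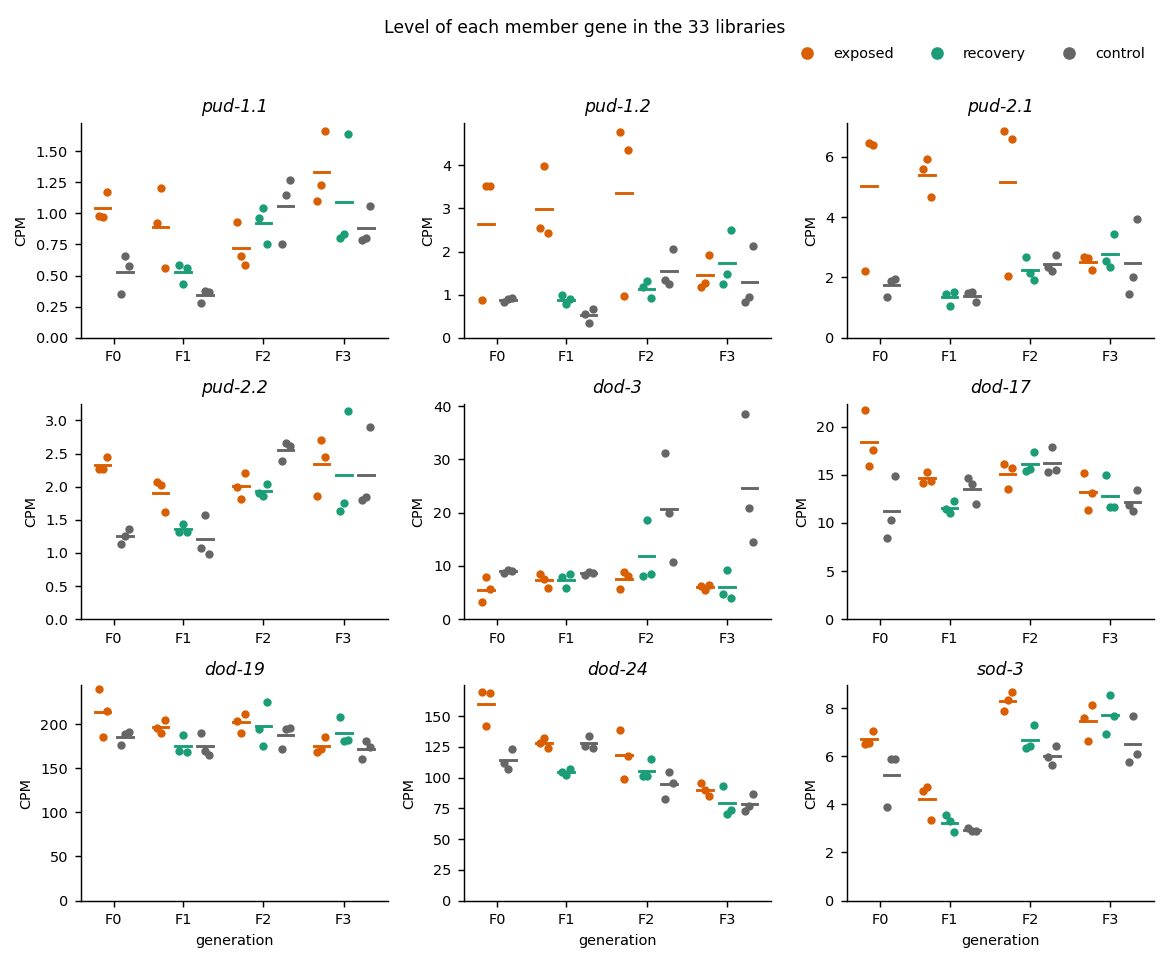
Level of each of the 9 genes in CPM (vertical axis, linear, from 0) in the 33 libraries by generation, with exposed, recovery and control libraries as orange, green and grey points and the group mean as a bar (n = 3 libraries). F0 has no recovery group. In the *pud-1.2* and *pud-2.1* panels 1 exposed library in F0 and 1 in F2 lie near the control libraries, and in the *dod-3* panel the F2 and F3 controls reach 31.2 and 38.6 CPM.

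The decrease of *dod-3* in exposed against control animals was already known in these data, so no test of it is used there and the other 8 genes are counted. In F0, 4 of the 8 genes were called in exposed against control animals, all higher, where 1.36% of all genes tested were called and 1.29% were called higher. They were *pud-2.1*, *pud-2.2*, *dod-17* and *dod-24*. In F1 the 3 called genes were *pud-1.1*, *pud-1.2* and *pud-2.1*, all higher, against 1.47% of all genes called and 0.942% called higher. In F2 *dod-24* and *sod-3* were called higher, against 9% of all genes called and 2.81% called higher. In F3 edgeR called none of the 8, against 5.24% of all genes, with 0 at an unadjusted p under 0.05 and none called by DESeq2. Because the genes were picked with results known, nothing is read from these shares. The libraries of the exposed and control groups did not overlap, in either direction, for 7, 6, 3 and 2 of the 9 genes in F0, F1, F2 and F3, against 24.7%, 23%, 29.8% and 16.4% of all genes tested. These numbers include *dod-3*, known beforehand to be lower, whose exposed libraries lay below the controls in F0, F2 and F3. In F2 *pud-2.2* also lay below and *sod-3* above. Nothing is read from these numbers either.

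The *pud* genes lie on chromosome V in 1 cluster, in which *pud-1.1* and *pud-1.2*, and likewise *pud-2.1* and *pud-2.2*, are near-identical copies. Their proteins PUD-1 and PUD-2 are known to form a heterodimer. In WBcel235, *pud-1.2* (WBGene00021236, V:2322038-2322566, minus strand) and *pud-2.2* (WBGene00017500, V:2323014-2323524, plus strand) form 1 divergent pair. The other is formed by *pud-2.1* (WBGene00017490, V:2329444-2329954, minus strand) and *pud-1.1* (WBGene00017499, V:2330429-2330930, plus strand). The Ensembl annotation gives WBGene00017490 the symbol *pud-2.2* as well, and RefSeq calls it *pud-2.1*, the name used here. How reads were divided between copies is not given in the sources used here, so the level of each copy is uncertain. Counts per library were 9 to 180 for *pud-1.2* and 10 to 75 for *pud-1.1*, so counting error is large for both.

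The transcripts of *pud-2.1* were at 2.2, 6.46 and 6.38 CPM in F0 exposed libraries, against 1.35, 1.89 and 1.96 CPM in F0 control libraries. Exposed replicate 1 lay just above the controls, and the others were over 3 times as high as any control. The fitted log2 fold change was 1.52 (SE 0.37, edgeR adjusted p = 0.038). Its near-identical copy *pud-2.2* had 2.26, 2.26 and 2.45 CPM in F0 exposed libraries, against 1.13, 1.26 and 1.36 CPM in F0 control libraries. All 3 exposed libraries were alike and above every control (log2 change 0.89, SE 0.22, edgeR adjusted p = 0.034). For *pud-1.1* the values were 0.982, 0.972 and 1.17 CPM in F0 exposed and 0.35, 0.654 and 0.573 CPM in F0 control libraries, again without overlap, with a log2 fold change of 0.98 (SE 0.30, edgeR adjusted p = 0.11). For *pud-1.2* they were 0.875, 3.51 and 3.52 CPM in F0 exposed and 0.835, 0.887 and 0.928 CPM in F0 control libraries. Exposed replicate 1 fell among the controls, and the gene was not called (log2 change 1.56, SE 0.49, edgeR adjusted p = 0.12). With the counts of each pair of copies summed, the log2 fold change in F0 was 1.29 for *pud-2* (edgeR adjusted p = 0.019) and 1.37 for *pud-1* (edgeR adjusted p = 0.077). Leaving out 1 library at a time gave log2 fold changes of 1.30 to 1.88 for *pud-2.1* and 0.83 to 0.95 for *pud-2.2*, while the number of all genes called in F0 ran from 3 to 350 in these fits, against 240 with every library. The call of *pud-2.1* was lost in 5 of 6 fits, all but that without exposed replicate 1 (edgeR adjusted p 0.021 to 0.26 over the 6). That of *pud-2.2* was lost in 5 of 6, all but that without control replicate 3 (edgeR adjusted p 0.04 to 0.23).

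In F1 the exposed against control log2 fold changes of *pud-1.1*, *pud-1.2* and *pud-2.1* were larger than in F0 and that of *pud-2.2* was smaller, and edgeR's test of the difference between F1 and F0 called none. The level of *pud-2.1* was 5.59, 5.94 and 4.65 CPM in F1 exposed libraries, against 1.45, 1.04 and 1.53 CPM in F1 recovery and 1.48, 1.51 and 1.17 CPM in F1 control libraries. Recovery and control libraries overlapped, and every exposed library was over 3 times as high as any of them. The gene rose in exposed against control animals by a log2 fold change of 1.96 (SE 0.39, edgeR adjusted p = 0.0071), a call that held without any 1 of the 6 libraries. It also rose in exposed against recovery animals (log2 change 2.00, SE 0.38, edgeR adjusted p = 0.008), the 1 gene of the 9 called there, against 1.45% of all genes called and 0.919% called higher. That call was lost without exposed replicate 2 or recovery replicate 2 (edgeR adjusted p = 0.056 and 0.059), with log2 fold changes of 1.86 to 2.09 without single libraries. For *pud-1.2* the values were 2.54, 3.98 and 2.42 CPM in F1 exposed, 0.986, 0.775 and 0.891 CPM in F1 recovery and 0.557, 0.339 and 0.671 CPM in F1 control libraries. The 3 groups did not overlap, and the log2 fold change of exposed against control was 2.47 (SE 0.53, edgeR adjusted p = 0.014). For *pud-1.1* the values were 0.922, 1.2 and 0.557 CPM in F1 exposed, 0.586, 0.428 and 0.56 CPM in F1 recovery and 0.278, 0.377 and 0.364 CPM in F1 control libraries. Exposed and recovery overlapped, both lay above the controls, and *pud-1.1* was called against control (log2 change 1.41, SE 0.34, edgeR adjusted p = 0.027). The call of *pud-1.2* was lost without exposed replicate 2, control replicate 1 or control replicate 2 (edgeR adjusted p = 0.074, 0.076 and 0.096), and that of *pud-1.1* in each fit but that without exposed replicate 3 (edgeR adjusted p 0.01 to 0.19). Without single libraries the log2 fold change of *pud-1.2* stayed above 2 and that of *pud-1.1* ran from 1.13 to 1.66. Levels of *pud-2.2* were 2.07, 2.03 and 1.62 CPM in F1 exposed, 1.31, 1.44 and 1.32 CPM in F1 recovery and 1.07, 1.58 and 0.979 CPM in F1 control libraries (exposed against control log2 change 0.68, SE 0.23, edgeR adjusted p = 0.15). All exposed libraries of *pud-2.2* were above the others, 1 of them narrowly. Summed over the copies, the log2 fold change in F1 was 2.15 for *pud-1* and 1.50 for *pud-2* (edgeR adjusted p = 0.0055 and 0.0044).

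In F2 the fitted exposed against control changes of the copies of each pair had opposite signs. The level of *pud-2.1* was 6.84, 2.06 and 6.58 CPM in F2 exposed, 2.67, 2.14 and 1.91 CPM in F2 recovery and 2.35, 2.22 and 2.75 CPM in F2 control libraries. That of *pud-1.2* was 4.77, 0.959 and 4.35 CPM in F2 exposed, 1.18, 1.31 and 0.931 CPM in F2 recovery and 1.34, 1.24 and 2.07 CPM in F2 control libraries. For both genes exposed replicate 2 lay below the controls and the other exposed libraries lay far above them. EdgeR called neither gene (edgeR adjusted p = 0.069 and 0.15), while DESeq2 called *pud-2.1* (log2 fold change 1.12, DESeq2 adjusted p = 0.018) and not *pud-1.2*. Without exposed replicate 2 both were called, with log2 fold changes of 1.45 for *pud-2.1* and 1.53 for *pud-1.2* (edgeR adjusted p = 0.018 and 0.03). Their copies showed no such split. For *pud-1.1* F2 exposed libraries had 0.927, 0.655 and 0.582 CPM, against 0.756, 1.15 and 1.27 CPM in F2 control libraries. For *pud-2.2* they had 1.99, 1.82 and 2.2 CPM, against 2.39, 2.66 and 2.61 CPM in F2 control libraries, with every exposed library below every control. The log2 fold changes were -0.58 for *pud-1.1* and -0.36 for *pud-2.2* (SE 0.30 and 0.21, edgeR adjusted p = 0.23 and 0.31). With the counts of each pair of copies summed, edgeR called neither pair in F2 exposed against control animals.

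In F3 no *pud* member was called. The means of *pud-2.1* were 2.51 ± 0.24 CPM in exposed, 2.78 ± 0.585 CPM in recovery and 2.47 ± 1.3 CPM in control animals (SD, n = 3), and those of *pud-1.2* were 1.45 ± 0.403, 1.74 ± 0.665 and 1.29 ± 0.719 CPM in the same groups. The level of *pud-1.1* was 1.1, 1.23 and 1.66 CPM in F3 exposed against 0.788, 0.804 and 1.06 CPM in F3 control libraries, without overlap (log2 change 0.58, SE 0.29, edgeR adjusted p = 0.26). The 95% interval of the log2 difference of *pud-2.1* in F3 was -0.78 to 0.78. Recovery against control log2 fold changes of the 4 *pud* genes ran from -0.47 to 0.73 over F1, F2 and F3, and edgeR and DESeq2 called none.

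The members *pud-1.2* and *pud-2.1*, high in some exposed libraries and at the control level in others, both lie on the minus strand. The ratio of *pud-2.1* to *pud-2.2* counts was 0.972, 2.86 and 2.6 in F0 exposed, 2.69, 2.93 and 2.87 in F1 exposed, 3.44, 1.13 and 2.99 in F2 exposed and 1.43, 0.976 and 0.912 in F3 exposed libraries. It ran from 0.722 to 1.55 over the 9 recovery libraries and from 0.812 to 1.5 over the 12 control libraries. The ratio of *pud-1.2* to *pud-1.1* counts was 0.891, 3.62 and 3 in F0 exposed, 2.75, 3.33 and 4.33 in F1 exposed, 5.14, 1.46 and 7.47 in F2 exposed and 1.07, 1.03 and 1.15 in F3 exposed libraries. Over recovery it ran from 1.22 to 1.81 and over controls from 0.9 to 2.38. Both ratios were thus high in the same 7 of 12 exposed libraries, and low in F0 exposed replicate 1, F2 exposed replicate 2 and the 3 F3 exposed libraries. In F0 exposed replicate 1 and F2 exposed replicate 2 the gene *R09E10.2*, known in these data as higher under irradiation, was at 30 and 19.6 CPM, within the 16.5 to 30 CPM of all exposed libraries and above the 3.24 to 8.34 CPM of all recovery and control libraries. F0 exposed replicate 1 also had the lowest summed levels in F0 of the germline, muscle, neuron and cuticle lists and of the intestine markers. Their sums were 5729, 2785, 266, 15507 and 1865 CPM, against at least 6977, 3732, 307, 20116 and 2235 CPM in the other F0 libraries. F2 exposed replicate 2 was not low in these sums, with 2496 CPM of intestine markers, the highest of its group. The part of tissue content in the ratios was not tested.

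**Figure D2:**
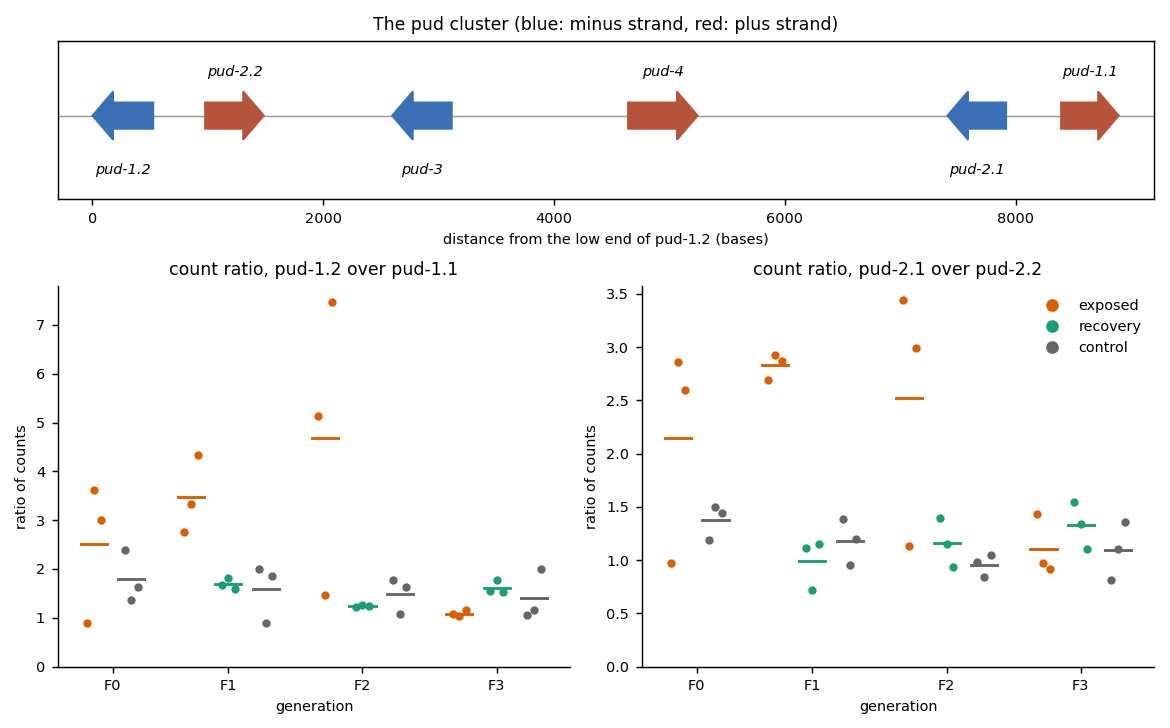
Top, the *pud* cluster drawn to scale as distance in bases from the low end of *pud-1.2*, with genes of the minus strand in blue and of the plus strand in red. Bottom, ratio of the counts of *pud-1.2* to *pud-1.1* (left) and of *pud-2.1* to *pud-2.2* (right) in each library by generation (linear axes from 0; bars are group means, n = 3). The 7 exposed libraries with ratios above every recovery and control library are 2 of F0, 3 of F1 and 2 of F2, and the F3 exposed libraries lie at the control level.

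The other 2 genes of the cluster, *pud-3* (minus strand) and *pud-4* (plus strand), were far more abundant. *pud-3* averaged 160 ± 38.1 CPM in F1 exposed and 88.6 ± 11.9 CPM in F1 control animals, and 235 ± 35.4 CPM in F3 exposed and 135 ± 17.6 CPM in F3 control animals (SD, n = 3). It rose in both (log2 fold change 0.85 and 0.79, SE 0.15 each, edgeR adjusted p = 0.0028 and 0.0029). *pud-4* averaged 106 ± 9.07 CPM in F0 exposed and 70.6 ± 6.29 CPM in F0 control animals, and 91.9 ± 11.4 CPM in F3 exposed and 59.2 ± 5.6 CPM in F3 control animals. It rose in both (log2 fold change 0.59 and 0.63, edgeR adjusted p = 0.018 and 0.0033). *pud-3* was also called in F3 recovery against control animals, at 203 ± 35.7 CPM in recovery and 135 ± 17.6 CPM in control animals (log2 fold change 0.58, edgeR adjusted p = 0.0483), and neither gene was called in F2. In F0 exposed replicate 1 and F2 exposed replicate 2, *pud-3* was at 193 and 194 CPM, within the range of the other exposed libraries of those generations.

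Averaged over the 4 generations, 5 of the 8 genes were called in exposed against control animals, all higher, against 8.29% of all genes called and 5.53% called higher. The log2 fold changes were 0.60 for *pud-1.1*, 1.31 for *pud-1.2* and 1.13 for *pud-2.1* (SE 0.16, 0.25 and 0.19, edgeR adjusted p = 0.014, 0.0013 and 0.00028). For *pud-2.2* it was 0.33 (SE 0.11, edgeR adjusted p = 0.059). Leaving out any 1 of the 24 libraries left the 5 calls in place. DESeq2 called all 8, against 10.2% of all genes. The average hides differences between generations. For *pud-1.1* the exposed against control log2 difference in F2 was 1.56 lower than that in F0, and for *pud-2.2* it was 1.25 lower (SE 0.43 and 0.30, edgeR adjusted p = 0.043 and 0.025). With *dod-17* these were the 3 genes called in that test, against 3.04% of all genes tested and 2.61% called lower. With the copies summed neither *pud* difference was called (edgeR adjusted p = 0.45 for *pud-1* and 0.26 for *pud-2*), and leaving out single libraries ended that of *pud-1.1* in 9 of 12 fits and that of *pud-2.2* in 5 of 12. EdgeR called none of the 8 in the change from F0 to F1 or from F0 to F3, against 0.0567% and 0.221% of all genes, with 2 and 3 at an unadjusted p under 0.05 and none by DESeq2.

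The superoxide dismutase gene *sod-3* (WBGene00004932, X:17092753-17094306, plus strand) lies in a region shared with *C08A9.3* and *lido-1* on the other strand. The libraries were strand-specific, but the strand setting of the counting is not given in the sources used here. Its level was 6.53, 6.54 and 7.06 CPM in F0 exposed and 3.91, 5.89 and 5.89 CPM in F0 control libraries. In F1 it was 4.55, 4.74 and 3.34 CPM in exposed, 3.58, 3.29 and 2.85 CPM in recovery and 3.01, 2.9 and 2.91 CPM in control libraries. In F2 it was 7.9, 8.33 and 8.66 CPM in exposed, 6.34, 6.43 and 7.32 CPM in recovery and 5.97, 5.66 and 6.43 CPM in control libraries. Every exposed library was above every control library in F0, F1 and F2, and in F2 above every recovery library as well. In F3 the groups overlapped, at 7.6, 6.66 and 8.15 CPM in exposed, 6.95, 8.54 and 7.7 CPM in recovery and 5.78, 7.7 and 6.11 CPM in control libraries. The exposed against control log2 fold changes were 0.36, 0.52, 0.46 and 0.19 from F0 to F3 (SE 0.14 to 0.15), and *sod-3* was called in F2 (edgeR adjusted p = 0.039). That call was lost without any 1 of the 6 libraries but control replicate 3 (edgeR adjusted p 0.037 to 0.17), with log2 fold changes of 0.42 to 0.51. The average over the 4 generations was 0.38 (SE 0.07, edgeR adjusted p = 0.00085), with edgeR adjusted p from 0.00023 to 0.0027 over the 24 fits that left out 1 library. The changes did not differ detectably between generations (edgeR adjusted p = 0.79, 0.82 and 0.71 for F1, F2 and F3 against F0).

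The level of *dod-3* (WBGene00016052, V:2730622-2731098, minus strand) separated groups chiefly through the late controls. It was 31.2, 19.9 and 10.8 CPM in F2 control and 38.6, 20.9 and 14.5 CPM in F3 control libraries. Exposed libraries had 5.62, 8.82 and 8.05 CPM in F2 and 6.25, 5.39 and 6.35 CPM in F3. The controls of both generations thus lay above the exposed libraries and spread over a wide range, with replicate 1 the highest each time. In F0 *dod-3* was at 3.14, 7.89 and 5.56 CPM in exposed and 8.68, 9.13 and 9.06 CPM in control libraries, and in F1 at 8.47, 7.6 and 5.87 CPM in exposed and 8.37, 8.89 and 8.72 CPM in control libraries. Exposed animals thus stayed between 3.14 and 8.82 CPM over the 4 generations. As *dod-3* was already known to be lower in exposed animals in these data, its changes are given without a test: the log2 fold change of exposed against control was -0.71, -0.24, -1.45 and -2.03 from F0 to F3 (SE 0.40 to 0.41). Without F2 control replicate 1 the F2 value was -1.01.

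Recovery animals had *dod-3* at 7.89, 5.8 and 8.55 CPM in F1, 8.06, 18.7 and 8.53 CPM in F2 and 4.8, 9.22 and 3.88 CPM in F3. F2 recovery replicate 2 reached the range of the F2 controls, and all F3 recovery libraries lay below all F3 controls. *dod-3* was the 1 gene of the 9 called in F3 recovery against control, lower, where 1.58% of all genes were called and 0.669% called lower (log2 change -2.05, SE 0.40, edgeR adjusted p = 0.012). This comparison uses the same 3 control libraries as that of exposed animals, so it is no second observation of them. The call was lost without recovery replicate 1, recovery replicate 3 or control replicate 1 (edgeR adjusted p = 0.057, 0.1 and 0.07). EdgeR called none of the 9 in recovery against control in F1 or F2, against 2.81% and 3.05% of all genes, with 1 and 0 at an unadjusted p under 0.05. In exposed against recovery it called none in F2 or F3, against 0.00567% and 1.68%, with 3 and 0 at an unadjusted p under 0.05. DESeq2 called none in these 4 comparisons. Over F1 to F3 *dod-3* was the 1 gene called in recovery against control, against 2.89% of all genes called and 1.57% called lower (log2 change -1.02, SE 0.23, edgeR adjusted p = 0.02). That call was lost without F2 recovery replicate 1 or F3 control replicate 1 (edgeR adjusted p = 0.0539 and 0.0527). This average also uses the control libraries of the exposed comparisons, so it is no second observation of them.

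Cuticle and moulting genes, whose expression cycles with larval stage, also differed between these groups in F2. Their mean log2 CPM was 2.78, 3.00 and 2.89 in F2 exposed, 2.80, 2.77 and 2.87 in F2 recovery and 3.53, 3.97 and 3.19 in F2 control libraries. Of 198 such genes tested, 52 were called lower and 0 higher in F2 exposed against control animals, and 55 lower and 0 higher in F2 recovery against control animals. Of all genes tested, 9% were called in F2 exposed and 3.05% in F2 recovery against control animals, in either direction. Of 70 sperm genes tested, 42 were called lower and 0 higher in F2 exposed against control animals (median log2 fold change -0.58). In F3 exposed against control animals no sperm gene was called by edgeR (3 at an unadjusted p under 0.05, 1 by DESeq2), and 3 of 9 male markers were called higher, with a median log2 fold change of 1.34 over the 9. Of all genes tested 5.24% were called there. The part of sperm and male transcripts in the members' changes was not tested. With the mean of the cuticle and moulting genes as a covariate the F2 log2 fold change of *dod-3* was -0.64. Neither *dod-24* (0.26, edgeR adjusted p = 0.46) nor *sod-3* (0.52, edgeR adjusted p = 0.22) was then called in F2. Without the covariate their log2 fold changes were 0.33 and 0.46, so that of *sod-3* was not smaller with it. The cuticle means of F2 exposed and control libraries did not overlap, so group and covariate are hard to tell apart there. In F3 the cuticle mean was 3.28, 2.58 and 2.78 in exposed and 2.77, 2.41 and 2.43 in control libraries, which overlapped. In the F1 controls it was 3.18 to 3.36 while *dod-3* was at 8.37 to 8.89 CPM.

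Of the genes known as lower in *daf-2* mutants, *dod-17* (WBGene00010745, IV:12976303-12978343, plus strand) and *dod-24* (WBGene00007875, IV:12940106-12941354, minus strand) lie near each other, in the order *dod-21*, *dod-24*, *dod-22* and *dod-17* along the chromosome. The level of *dod-24* was 170, 142 and 169 CPM in F0 exposed and 112, 107 and 123 CPM in F0 control libraries. In F1 it was 128, 132 and 124 CPM in exposed, 105, 102 and 107 CPM in recovery and 126, 134 and 124 CPM in control libraries. Exposed and control animals were alike in F1 and the recovery libraries lowest, with a log2 fold change of recovery against control of -0.29 (SE 0.11, edgeR adjusted p = 0.16). In F2 it was 139, 99 and 118 CPM in exposed, 101, 101 and 115 CPM in recovery and 82.7, 105 and 95.9 CPM in control libraries. In F3 it was 95.5, 90.1 and 85.1 CPM in exposed, 93.3, 70.1 and 73.7 CPM in recovery and 72.7, 77.1 and 86.6 CPM in control libraries. F0 exposed stood above all other groups, and the F2 and F3 groups overlapped. *dod-24* was called higher in exposed animals in F0 (log2 change 0.49, SE 0.11, edgeR adjusted p = 0.019) and barely in F2 (0.33, SE 0.11, edgeR adjusted p = 0.0498). The average over 4 generations was 0.25 (SE 0.05, edgeR adjusted p = 0.0023). The difference in F1 minus that in F0 was -0.49 (SE 0.15, edgeR adjusted p = 0.22). With the libraries of the compared generations alone it was -0.48 and called (edgeR adjusted p = 0.039). The F0 call was lost without exposed replicate 1 or 3 or control replicate 1 or 2 (edgeR adjusted p up to 0.14; log2 fold changes 0.44 to 0.57), and the F2 call in each fit but that without exposed replicate 2 (edgeR adjusted p up to 0.35; log2 fold changes 0.20 to 0.44).

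For *dod-17* F0 exposed libraries had 21.7, 15.9 and 17.6 CPM, against 8.44, 10.3 and 14.9 CPM in F0 control libraries. The groups did not overlap, control replicate 3 was near the lowest exposed library, and the gene rose (log2 change 0.72, SE 0.15, edgeR adjusted p = 0.017). The call was lost without exposed replicate 1, control replicate 1 or control replicate 2 (edgeR adjusted p = 0.16, 0.19 and 0.12), with log2 fold changes of 0.55 to 0.97 over the 6 fits. In later generations exposed means were 14.6, 15.1 and 13.2 CPM and control means 13.6, 16.3 and 12.2 CPM from F1 to F3, with log2 fold changes of 0.11, -0.11 and 0.12. The difference in F2 was 0.83 lower on the log2 scale than that in F0 (SE 0.21, edgeR adjusted p = 0.032), a call that was lost in 6 of 12 fits leaving out 1 library. *dod-19* (WBGene00022644, V:411782-414759, minus strand) was the steadiest of the 9. Its group means ran from 172 CPM in F3 control to 214 CPM in F0 exposed animals, a ratio of 1.24, and edgeR called it in none of the 18 comparisons, while DESeq2 called it higher in the average of exposed against control (log2 fold change 0.14, adjusted p = 0.046). The 95% intervals of its exposed against control log2 difference lay within -0.16 and 0.39 in all 4 generations.

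**Figure D3:**
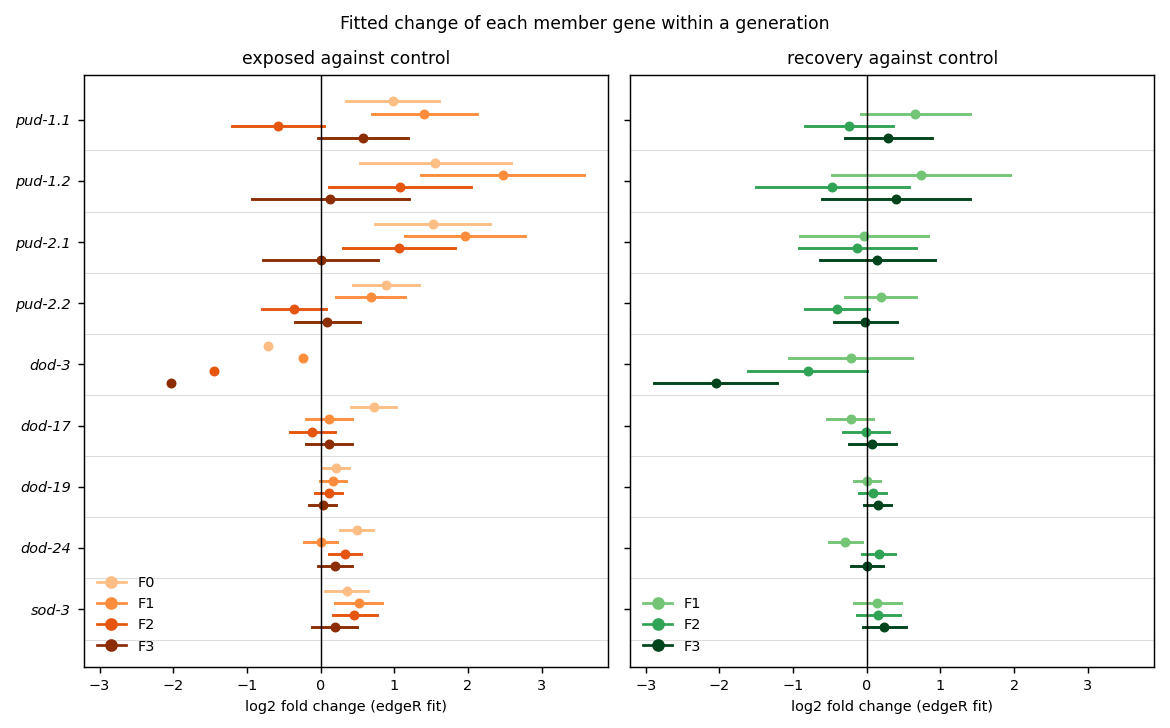
Fitted log2 fold change of each gene within a generation, exposed against control (left, F0 to F3) and recovery against control (right, F1 to F3), with points for the edgeR estimate and bars for its 95% interval, darker for later generations. The exposed points of *dod-3* carry no interval because its decrease was known beforehand. In the left panel the *pud* points of F0 and F1 lie right of 0, and in the right panel the point farthest from 0 is that of *dod-3* in F3, at -2.05.

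Counts for the other genes of the pathway stand against 1.36%, 1.47%, 9% and 5.24% of all genes called in exposed against control animals from F0 to F3. Of 11 tested genes of the signalling core, from *daf-2* through *age-1*, *pdk-1* and *akt-1* to *daf-16*, none was called in exposed against control animals in any generation by edgeR, with 1, 0, 4 and 2 at an unadjusted p under 0.05 from F0 to F3 and 0, 0, 3 and 1 called by DESeq2 (median log2 fold change -0.08 to 0.07, against -0.02 to 0.01 over all genes tested). In F1 recovery against control animals *daf-2*, the receptor gene, rose to 70 ± 6.98 CPM in recovery animals, against 46.6 ± 4.41 CPM in control animals (SD, n = 3; log2 fold change 0.59, edgeR adjusted p = 0.021). It was the 1 core gene of the 11 called there, against 2.81% of all genes. Of 12 partners and regulators of DAF-16, edgeR called none in exposed against control animals in any generation, with 5, 3, 4 and 3 at an unadjusted p under 0.05 and 0, 1, 3 and 1 called by DESeq2. Of 31 insulin-like ligand genes edgeR called 0, 0, 2 and 3 from F0 to F3, the 2 in F2 lower and the 3 in F3 higher, with 3 and 6 at an unadjusted p under 0.05 in F0 and F1 and 0 and 1 called there by DESeq2. In F3 *ins-31* was at 6.91, 3.38 and 6.28 CPM in exposed against 0.939, 1.4 and 2.48 CPM in control libraries (log2 change 1.74, SE 0.36, edgeR adjusted p = 0.005). *ins-33* and *daf-28* rose in F3 by log2 fold changes of 1.02 and 0.70 (edgeR adjusted p = 0.022 and 0.034). In F2 *ins-23* fell (log2 fold change -1.31, edgeR adjusted p = 0.012).

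Of 19 other genes known as higher in *daf-2* mutants, edgeR called 0 in F0 (6 at an unadjusted p under 0.05, 1 by DESeq2), 2 in F1, 4 in F2 and 1 in F3, and all but 1 of its calls were lower in exposed animals. The ferritin gene *ftn-1* was at 1.43, 1.22 and 1.35 CPM in F2 exposed against 5.34, 4.1 and 5.45 CPM in F2 control libraries, far apart (log2 change -1.90, SE 0.34, edgeR adjusted p = 0.0041). *fat-5*, a fatty acid desaturase gene, fell in F1 (log2 fold change -0.86, edgeR adjusted p = 0.024). The median log2 fold changes of these 19 genes were -0.17, -0.13, -0.12 and -0.08 from F0 to F3, against -0.02 to 0.01 over all genes. In recovery against the same controls they were -0.19, -0.17 and -0.37 from F1 to F3, with 0, 1 and 2 of the 19 called, all lower (5 at an unadjusted p under 0.05 in F1, 2 by DESeq2). Of all genes tested 2.81%, 3.05% and 1.58% were called in these recovery comparisons. Of 4 other genes known as lower in *daf-2* mutants, the acyl-CoA dehydrogenase gene *acdh-1* fell in F1 and the yolk protein gene *vit-5* rose in F2 (log2 fold change -0.27 and 0.35, edgeR adjusted p = 0.047 and 0.021). Of the 6 other *dod* genes tested, *dod-23* rose in F2 and *dod-22* in F3 (log2 fold change 0.32 and 0.82, edgeR adjusted p = 0.012 and 0.0074). Neither *daf-2* class of genes, the 9 included, was called in a single direction throughout.

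Levels also moved between the unirradiated generations, which were grown and sampled at different times, so generation and time of sampling cannot be told apart. Cuticle and moulting genes moved with these steps, with 110 of 198 called higher in F1 against F0 controls (median log2 fold change 1.51) and 129 called lower in F3 against F2 controls (median -1.06). Of 70 sperm genes 43 were called lower in F3 against F2 controls. With the cuticle mean as covariate the step of *sod-3* between F1 and F0 controls was -0.95 on the log2 scale (edgeR adjusted p = 0.0506). *sod-3* averaged 2.94 ± 0.0635 CPM in F1 control and 5.23 ± 1.14 CPM in F0 control animals, and was 1 of the 9 called there, against 19.8% of all genes called and 9.21% called lower (log2 change -0.83, SE 0.15, edgeR adjusted p = 0.00021). It averaged 6.02 ± 0.39 CPM in F2 control animals, higher than in F1 controls (log2 fold change 1.03, edgeR adjusted p = 9.6e-06). These steps were larger than any exposed against control difference of *sod-3* within a generation. Between F2 and F1 controls 6 of the 9 were called, 5 higher and 1 lower, against 23.5% of all genes called, 12.8% higher and 10.6% lower. Besides *sod-3*, *pud-1.1*, *pud-1.2*, *pud-2.2* and *dod-3* were higher in F2 controls (log2 fold change 1.69, 1.55, 1.11 and 1.24, edgeR adjusted p = 0.00043, 0.0459, 0.00047 and 0.025) and *dod-24* was lower (log2 fold change -0.44, edgeR adjusted p = 0.0029). Of these, *pud-1.2* was lost without any 1 of the 6 libraries (edgeR adjusted p 0.053 to 0.18) and *dod-3* without any 1 of the F1 controls or F2 control replicate 1 (edgeR adjusted p up to 0.18). The F2 controls also enter the decrease of *dod-3* in exposed animals that was known beforehand. Its call between F2 and F1 controls is therefore no independent observation. Between F3 and F2 controls *dod-17* was called, lower, against 29.2% of all genes called and 16.3% called lower (log2 fold change -0.42, edgeR adjusted p = 0.037), and this was lost in 4 of 6 fits leaving out 1 library.

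Ordered by mean level over the 11 groups, neighbouring groups mostly overlapped. *pud-1.1* and *pud-1.2* each had 1 step without overlap, below which lay the F1 controls, last in the order. *pud-2.2* had 1, between F1 exposed and F1 recovery, and its F1 controls, also last, overlapped the F0 controls. *dod-24* had 1, with its F0 exposed libraries above the rest. *pud-2.1*, *dod-3*, *dod-17*, *dod-19* and *sod-3* had 0. Such steps were not counted over all genes, so nothing is read from these numbers. The genes whose centred profile over the 11 group means was most like that of *sod-3* were the glutathione S-transferase genes *gst-12* and *gst-26* and *dct-17*, with root mean square log2 differences of 0.12 to 0.14. For *dod-24* it was the C-type lectin gene *clec-10* (0.10), and for *pud-1.1* and *pud-2.2* the UDP-glucuronosyltransferase gene *ugt-65* (0.22 and 0.16), with *pud-3* next for *pud-1.1* (0.24). For *pud-1.2*, *pud-2.1* and *dod-3* the nearest genes were *T19C9.8*, *mec-14* and *H23N18.6*, at 0.44, 0.41 and 0.35, so no profile came as close. These genes share the libraries and their scaling with the members.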

How the data were processed

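For the counting program, its strand setting and the genome build the sources used here give nothing. Strand-specific paired-end libraries of whole-animal RNA were sequenced on an Illumina HiSeq instrument, per the labels' protocols, and STAR and DESeq2 1.22.2 are named in the submitters' processing notes with no role. The deposited values are whole-number gene counts made by the authors, without normalisation, for 46778 identifiers, of which 46603 were in the WBcel235 annotation (Ensembl) that gave symbols and positions. Sequences are not shown.

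All 33 libraries entered 1 fit of edgeR 4.0.16 (R 4.3.3; quasi-likelihood F-test, robust dispersion, TMM scaling, filterByExpr on the 11 groups) with 1 coefficient per group, 22 residual degrees of freedom and Benjamini-Hochberg adjustment over 17627 genes. Standard errors were calculated back from the fold change and the F statistic and are approximate. The fit was tested on simulated data. The labels call the libraries biological replicates and name no separate cultures, so p-values measure the spread between libraries. Depth limits the *pud-1* copies most. The intervals of log2 differences rest on the approximate standard errors of the fit, so they too include the spread between libraries.

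The 9 genes and the gene lists were chosen with earlier results of these data known. Named genes were the 9, the 3 tested genes with a profile nearest to each of those whose group means spanned over 1 on the log2 scale, and up to 4 called genes of smallest adjusted p from each pathway list; the text names some of these. *R09E10.2*, *dod-21* and the marker sums were added for their values. Alternatives were DESeq2 1.42.0, its size factors, no filter, the replicate number as a block, the cuticle mean as a covariate, the compared generations alone, summed *pud* copies, and single libraries left out.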

Additional observations from a re-analysis of the deposited data

Results flagged for a closer look

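EdgeR's test of the difference itself called a change of exposed against control between F0 and F2 for 3 of the 8 genes other than *dod-3*. Of all genes tested, 3.04% were called there and 2.61% were called lower. For *pud-1.1* the log2 difference in F2 minus that in F0 was -1.56 (SE 0.43, adjusted p = 0.043), with higher exposed than control libraries in F0 and overlapping ones in F2. For *pud-2.2* it was -1.25 (SE 0.30, adjusted p = 0.025), with exposed above control in all F0 libraries and below control in all F2 libraries. For *dod-17* it was -0.83 (SE 0.21, adjusted p = 0.032), with exposed above control in all F0 libraries and overlap in F2. Leaving out 1 library at a time ended the calls of *pud-1.1*, *pud-2.2* and *dod-17* in 9, 5 and 6 of 12 fits. With the copies summed neither *pud* difference was called (edgeR adjusted p = 0.45 for *pud-1* and 0.26 for *pud-2*). No explanation was tested.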

How the results depend on the processing

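No member's fold change reversed its sign past a threshold in any alternative run. The numbers of genes called moved by over 1.5 times as follows. In exposed against control *dod-3* is not counted. With the libraries of the compared generations alone they were 0 in F0 and 1 in F2 exposed against control, 1 in F1 and 0 in F3 recovery against control, 3 in F1 exposed against recovery, 1 in the change from F0 to F1 and 2 in F1 against F0 controls. With the cuticle mean as covariate they were 0 in F2 exposed against control, in the change from F0 to F2, in recovery against control over F1 to F3, and in F1 against F0 and F3 against F2 controls. The log2 values were -1.63 for *pud-1.1*, -1.35 for *pud-2.2* and -0.81 for *dod-17* in the change from F0 to F2 (-1.56, -1.25 and -0.83 without the covariate), -0.95 for *sod-3* (-0.83) in F1 against F0 controls and -0.39 for *dod-17* (-0.42) in F3 against F2 controls, while all genes called in these 3 comparisons numbered 1, 531 and 117. Without the filter the F2 count was 0 and with DESeq2's size factors that of F3 against F2 controls was 0. With the *pud* copies summed and each pair taken as 1 gene, 1 was called in the change from F0 to F2. DESeq2 gave 2 in F1 exposed against recovery and 8 in the average of exposed against control. Without F3 recovery replicate 3 and F3 control replicate 3, the libraries with the fewest genes detected, the F3 recovery count was 0 and that of F3 against F2 controls 3. Apart from the 3 comparisons above, this paragraph gives no totals over all genes. Its member counts therefore do not show whether the members changed more than other genes. The fits of the compared generations alone and without the F3 libraries also held fewer libraries. The causes of these moves were not tested.

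Leaving out 1 library at a time gave 0 to 3 called genes in F0, 1 to 4 in F1, 0 to 3 in F2 and 0 in F3 exposed against control, while all genes called ran from 3 to 350, 91 to 204, 109 to 2313 and 438 to 1223. It gave 0 in F1 and F2 and 0 to 1 in F3 recovery against control (all genes 187 to 477, 14 to 1174 and 26 to 918), and 0 to 1, 0 and 0 in exposed against recovery from F1 to F3 (all genes 27 to 214, 1 to 3 and 3 to 986). The changes from F0 gave 0, 0 to 3 and 0 for F1, F2 and F3, the averages 5 to 6 (exposed) and 0 to 1 (recovery), and the control steps 1 to 2, 4 to 5 and 0 to 2. All genes called ran from 2 to 16, 0 to 751 and 0 to 365 in the changes from F0, 1216 to 1892 and 154 to 1867 in the averages, and 2095 to 2705, 3285 to 3706 and 3152 to 5505 in the control steps.

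No clear pairing of same-numbered replicates was seen. The correlation of their deviations ran from -0.39 to 0.53 over 30 pairs and exceeded 0.1 in 7. A library correlated best with its own number in 18 of 60 cases, which count the same libraries in several of the 10 comparisons. With the replicate number as a block the total calls were 247 against 240 in F0, 246 against 259 in F1, 1492 against 1587 in F2 and 862 against 923 in F3 exposed against control. The members called in F2 numbered 1. Under the block *dod-24* in F2 (adjusted p = 0.057) and *pud-1.1* in the change from F0 to F2 (adjusted p = 0.0522) were no longer called, and *pud-2.2* was called in the average (adjusted p = 0.0451). The block moved no other call of a member.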
